A study of Mus musculus with 8 samples.

Results

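The genes described here are 39 mouse genes of glucose breakdown and of the response to low oxygen, taken by name: carriers of glucose and lactate, glycolytic enzymes, and targets of the hypoxia-inducible factors (HIF). All 39 have rows in the deposited counts, which hold 39388 gene symbols, and 37 of them are among the 13342 genes that passed a filter on low counts. The remaining pair, the glucose carrier Slc2a3 and the lactate carrier Slc16a3, had between 0 and 8 counts in each library and was not tested. The counts come from RNA sequencing of spheroids of 4T1, an established mouse mammary carcinoma line. Lentiviral transduction gave the cells either a scrambled hairpin, in the 4 libraries called shCtrl, or a hairpin that targets Tlr7, an endosomal receptor for single-stranded RNA, in the 4 called shTlr7. Both groups grew as hanging drops in DMEM with serum, every library thus carried a hairpin vector, and no untransduced cells and no further Tlr7 hairpin were analysed here. The only contrast of the design, shTlr7 against shCtrl, asks what differs in these cells when Tlr7 is targeted.

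Glycolysis splits glucose into pyruvate in the cytosol, and lactate dehydrogenase can turn the pyruvate into lactate, which leaves the cell through monocarboxylate carriers. When oxygen is scarce, HIF-alpha subunits escape the prolyl hydroxylases that mark them for destruction through the VHL protein, pair with ARNT and switch on genes of glucose uptake, glycolysis, acid export and mitochondrial turnover. Tumour cells often run glycolysis at a high rate even with oxygen present, and cells deep inside a spheroid can receive less oxygen than those at its rim.

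Library totals ran from 18.1 to 93.8 M counts, with shTlr7 replicate 2 the deepest. Whether the replicates were separate cultures is not in the labels, so each p-value reflects the spread among these samples alone, and that spread may be technical. Tlr7 itself was counted 2, 3, 2 and 2 times in shCtrl replicates 1 to 4 and 0, 4, 3 and 0 times in shTlr7 replicates 1 to 4, too few to be tested or to check the labels. The epithelial markers Epcam, Krt8, Krt18 and Cdh1 stood at 436 CPM (counts scaled to a common library total) or more in every library, while Krt5 had no count. Of the 7 epithelial markers, 2 rose and 4 fell. Krt14 fell most, from a mean of 36.2 CPM in shCtrl to 3.25 CPM in shTlr7 (log2 fold change -3.51). The others had log2 fold changes of -0.69 for Krt19, -0.47 for Krt18, -0.38 for Krt8, 0.14 for Epcam and 0.20 for Cdh1. The 7 markers summed to 4291 to 4534 CPM in shCtrl and 3470 to 3759 CPM in shTlr7. Defining markers of other cell types were at or near 0: Adgre1, Col3a1 and Emcn had no count in any library and Ptprc reached at most 0.235 CPM. Of 6 macrophage markers, 3 passed the filter, of which Cd68 rose and Cd14 and Csf1r fell, and the summed level of the 6 was 87.0 to 96.9 CPM in shCtrl and 46.2 to 63.4 CPM in shTlr7. The 6 fibroblast markers summed to 44.1 to 45.2 CPM and 43.0 to 47.8 CPM, nearly all of it Pdgfra, and the 5 endothelial markers to 0.221 to 0.379 CPM and 0.399 to 0.641 CPM. The part of these marker differences in the results below was not tested, and in bulk RNA fewer cells with a transcript and less of it per cell cannot be told apart.

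Most glycolytic enzymes were lower in shTlr7, while the carriers that bring glucose in and take lactate out were higher, and related genes moved in opposite directions in 3 families (hexokinases, phosphofructokinases and HIF prolyl hydroxylases). Of the 37 tested members, 6 rose and 15 fell (edgeR quasi-likelihood test, adjusted p under 0.05), and 16 did not pass the test. Over all 13342 tested genes, 56% were called, 28.7% higher and 27.2% lower, so the share of members called, 56.8%, lay at the background. The median log2 fold change of the members was -0.13, against 0.01 over all tested genes. The differences were small: only 5 members (Eno1, Ldhb, Car12, Egln3 and Ak4) were called with a fold change of at least 1.4. That is 13.5%, against 21.3% of all tested genes. Tested against a minimum fold change of 1.2 (glmTreat), 14 members lost their calls, among them Slc16a1, Hk1, Hk2, Pfkl, Pfkp and Egln1. All 4 libraries of one group lay above all 4 of the other for 5 members higher and 12 members lower in shTlr7, and such a separation was found for 49.8% of all tested genes.

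**Figure D1:**
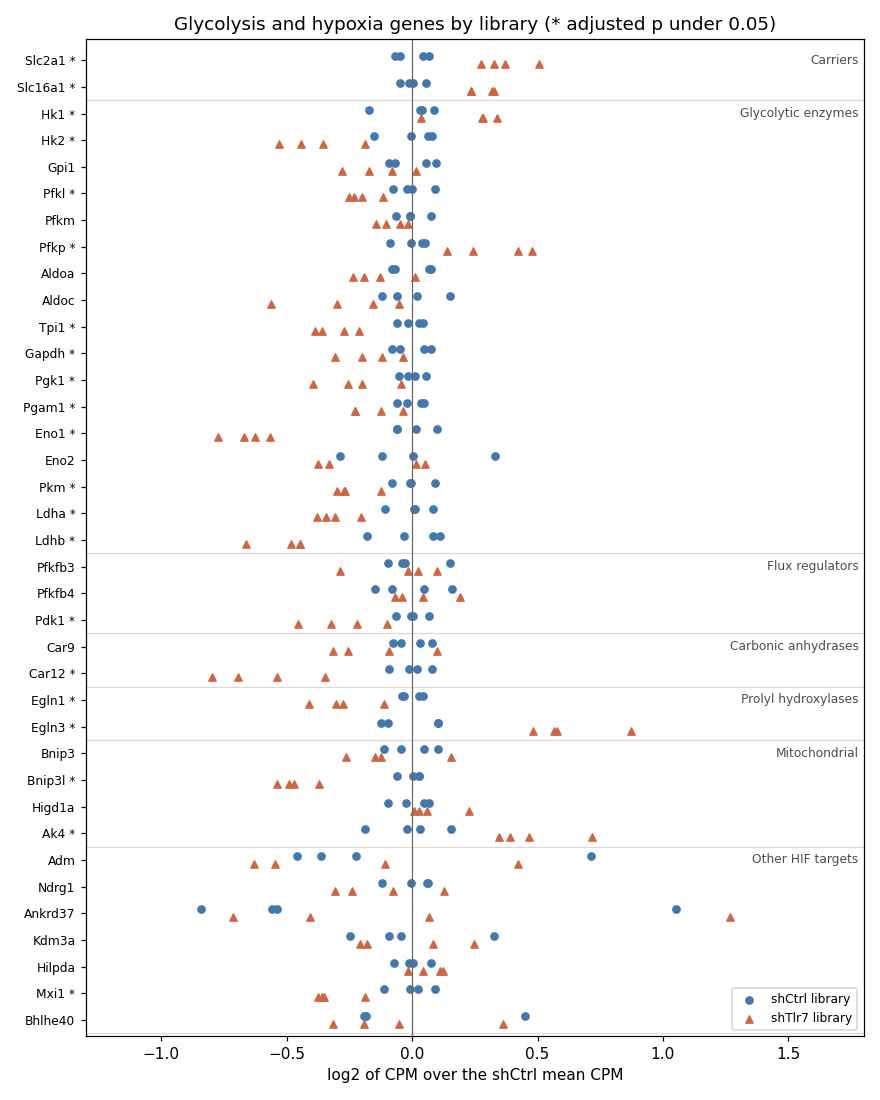
Level of each tested member in each library, as the log2 ratio of its CPM to the shCtrl mean CPM (x axis), by functional group (rows), with circles for shCtrl, triangles for shTlr7 and an asterisk for an adjusted p under 0.05. Most shTlr7 enzyme values lie left of 0, those of Slc2a1, Slc16a1, Pfkp, Egln3 and Ak4 lie to the right of every shCtrl value, and Ankrd37, Adm and Bhlhe40 spread widely within both groups.

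Both tested carriers among the members rose. Slc2a1, the main glucose importer of most proliferating cells (chromosome 4, 119108745 to 119137330, GRCm38.p6), stood at 239, 259, 263 and 243 CPM in shCtrl replicates 1 to 4 and at 314, 357, 325 and 303 CPM in shTlr7 replicates 1 to 4. Every shTlr7 library lay above every shCtrl library, with replicate 2 the highest. Its log2 fold change was 0.37 ± 0.05 (SE), or 1.29-fold (edgeR adjusted p = 4.61e-05). Slc16a1, which moves lactate and pyruvate across the plasma membrane together with a proton (chromosome 3, 104638664 to 104658462), stood at 231, 249, 237 and 240 CPM in shCtrl and at 298, 300, 282 and 282 CPM in shTlr7. The groups again did not overlap, and the libraries of each were close to one another. Its log2 fold change was 0.28 ± 0.04 (SE), or 1.21-fold (edgeR adjusted p = 5.67e-05). Slc2a3 was counted 3 times in shTlr7 replicate 2 and in no other library, and Slc16a3 1 to 8 times in each library, so almost all reads of these carrier pairs came from Slc2a1 and Slc16a1.

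The enzymes of glycolysis differed widely in level. Per kilobase of transcript, Aldoa and Pkm were the most abundant members in shCtrl, at 1902 ± 111 and 1891 ± 92.7 CPM per kilobase (SD, n = 4), and did not differ beyond their spread. Ldha followed at 1179 ± 63.9, Gapdh at 1029 ± 54.3 and Tpi1 at 706 ± 22.4 CPM per kilobase, each below the one before by more than the spread. At the low end, Ldhb stood at 4.25 ± 0.38 and Eno2 at 13.8 ± 2.59 CPM per kilobase. The 17 enzymes together took 1.53% ± 0.05 of all counts in shCtrl and 1.43% ± 0.09 in shTlr7 (SD, n = 4), and these shares overlapped, since shTlr7 replicate 2 reached 1.56%. On the TMM scale used for the other levels the groups did not overlap: the enzymes summed to 15606 to 16724 CPM in shCtrl and to 13139 to 15036 CPM in shTlr7.

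Of the 17 enzymes, 2 rose, 10 fell and 5 did not pass the test, with a median log2 fold change of -0.20. The share called was 70.6%, against 56% of all tested genes. The falls reached from the hexokinase Hk2 to the lactate dehydrogenases. Tpi1, which interconverts the triose phosphates (chromosome 6, 124810586 to 124814158), stood at 1168, 1156, 1122 and 1088 CPM in shCtrl and at 867, 978, 885 and 939 CPM in shTlr7. All shTlr7 libraries were below all shCtrl libraries, and the log2 fold change was -0.31 ± 0.05 (SE, edgeR adjusted p = 9.39e-05). Ldha, which reduces pyruvate to lactate, had the same log2 fold change of -0.31, from a mean of 2083 CPM to 1684 CPM. Pkm, the pyruvate kinase gene of most tissues outside liver and red cells, fell by 0.24 on the log2 scale, from 4599 to 3895 CPM. In both, the groups did not overlap.

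Eno1, the enolase that makes phosphoenolpyruvate (chromosome 4, 150236708 to 150248879), showed the largest change of any enzyme. It stood at 384, 363, 344 and 344 CPM in shCtrl and at 210, 242, 225 and 232 CPM in shTlr7. The gap between the groups was several times the spread within either. The log2 fold change was -0.66 ± 0.05 (SE), so that Eno1 fell by 36.6% (edgeR adjusted p = 1.84e-07). This value is uncertain in origin, because the table holds a second Eno1 row, which carries 81620 of its counts against 73 in the first. Of the Eno1 transcript, 85.6% matches another gene's transcript at 97% identity or more, and the paralogous row Eno1b had a log2 fold change of -0.62, from 7.18 CPM in shCtrl to 4.70 CPM in shTlr7.

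Ldhb, the lactate dehydrogenase subunit typical of heart, was the least abundant enzyme. It stood at 5.41, 5.98, 4.89 and 5.87 CPM in shCtrl and at 4.06, 3.97, 3.50 and 4.07 CPM in shTlr7, values that rest on 76 to 385 counts per library. The groups did not overlap, and the log2 fold change was -0.52 ± 0.11 (SE, edgeR adjusted p = 0.00095). Ldha held 99.6% of the length-scaled level of both subunits in shCtrl and 99.7% in shTlr7. Pgk1 at -0.22, Gapdh at -0.16 and Pgam1 at -0.15 (log2 fold changes) also fell, with groups that overlapped in CPM. Near-identical sequence elsewhere touches these enzymes: 76.8% of the Ldhb transcript matched a transcript of 1 other gene, 88.0% of Gapdh matched 49 others, 68.8% of Pgk1 matched 3 others, 65.5% of Pkm matched 1 other and 43.1% of Pgam1 matched 1 other.

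The calls for Gapdh and Pgam1 depended on single libraries. For Gapdh, the edgeR adjusted p went from 0.0312 to 0.0845 without shCtrl replicate 1, 0.0535 without shCtrl replicate 4, 0.0886 without shTlr7 replicate 1 and 0.122 without shTlr7 replicate 3. For Pgam1, it went from 0.0173 to 0.0535 without shCtrl replicate 1, 0.0609 without shTlr7 replicate 1 and 0.066 without shTlr7 replicate 3. The enzymes that did not pass the test had log2 fold changes of -0.13 for the phosphoglucose isomerase Gpi1, -0.13 for the aldolase Aldoa, -0.25 for Aldoc, -0.07 for the muscle-type phosphofructokinase Pfkm and -0.14 for the neuronal-type enolase Eno2. One library bore on 3 of these: without shTlr7 replicate 2, Gpi1, Aldoa and Aldoc were called lower at -0.17, -0.18 and -0.33 (edgeR adjusted p = 0.0377, 0.0179 and 0.0158). That library was the highest of its group for 28 of the 37 members, while it was the highest for 16.6% of all tested genes.

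At the entry to glycolysis the hexokinases moved apart. Hk1, the hexokinase of most tissues (chromosome 10, 62268855 to 62379920), stood at 251, 243, 241 and 210 CPM in shCtrl and at 299, 287, 287 and 242 CPM in shTlr7. Replicate 4 was the lowest of each group, and shTlr7 replicate 4 fell among the shCtrl values. Hk1 rose by a log2 fold change of 0.24 ± 0.07 (SE, edgeR adjusted p = 0.0111). Hk2, the inducible hexokinase of muscle and many tumours (chromosome 6, 82725025 to 82774454), stood at 124, 138, 144 and 146 CPM in shCtrl and at 95.6, 121, 108 and 102 CPM in shTlr7. Its groups did not overlap, and it fell by 0.37 ± 0.07 on the log2 scale (SE, edgeR adjusted p = 0.000831). The ratio of Hk2 to Hk1 counts within a library, which does not depend on how libraries are scaled, was 0.654-fold in shTlr7 of that in shCtrl, and Hk1 took 71.0% ± 2.89 of their length-scaled sum in shCtrl and 78.9% ± 2.12 in shTlr7 (SD, n = 4).

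The phosphofructokinases, which catalyse the committed step, moved apart as well. Pfkp, the platelet-type enzyme (chromosome 13, 6579874 to 6649060), stood at 209, 207, 201 and 189 CPM in shCtrl and at 270, 281, 238 and 222 CPM in shTlr7. Pfkl, the liver-type enzyme (chromosome 10, 77986947 to 78009807), stood at 650, 601, 610 and 578 CPM in shCtrl and at 512, 563, 519 and 530 CPM in shTlr7. In both genes the groups were apart, with Pfkp higher and Pfkl lower in every shTlr7 library. The log2 fold changes were 0.33 ± 0.07 for Pfkp and -0.20 ± 0.05 for Pfkl (SE, edgeR adjusted p = 0.00131 and 0.00245). Pfkm stood at 64.9, 58.9, 61.1 and 61.2 CPM in shCtrl and at 55.7, 60.8, 59.5 and 57.2 CPM in shTlr7, with overlapping groups. Of the length-scaled sum of the 3 genes, Pfkp took 20.8% ± 0.52 in shCtrl and 27.2% ± 1.99 in shTlr7, and Pfkm 9.16% ± 0.31 and 9.07% ± 0.36 (SD, n = 4). Pfkl took the rest, from 69.6% to 70.5% in the shCtrl libraries and from 61.9% to 66.0% in the shTlr7 libraries. The Pfkp rise carries a limit: 18% of its exon bases lie on Pitrm1, a gene of the other strand that also rose (log2 fold change 0.27), and without a stated strand setting their reads cannot be told apart.

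HIF binds the core ACGTG or GCGTG, and the promoters of these enzymes that moved apart are shown for that reason. Each is the 250 bases before a transcription start in the RefSeq promoter table of GRCm38.p6, read 5′ to 3′ on the gene's strand. Either core on either strand is in capitals (the letters CACGT and CACGC are the cores read from the other strand). They lie at chr6:82774455-82774704 (Hk2), chr10:78009808-78010057 (Pfkl) and chr13:6648772-6649021 (Pfkp), all on the minus strand. Hk1 has 2 windows in that table, and the counts do not say which start was used, so none is shown. The Hk1 window nearest the start of its principal transcript held neither core. Pfkp has 1 window, but its stretch lies inside the span of the gene, which ends at 6649060. The Pfkp stretch is thus not upstream of the whole gene.
Hk2: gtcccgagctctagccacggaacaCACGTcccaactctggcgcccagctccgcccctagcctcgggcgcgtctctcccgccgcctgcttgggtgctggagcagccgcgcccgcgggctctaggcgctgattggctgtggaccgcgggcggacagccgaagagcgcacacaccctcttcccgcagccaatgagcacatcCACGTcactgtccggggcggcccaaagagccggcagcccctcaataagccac
Pfkl: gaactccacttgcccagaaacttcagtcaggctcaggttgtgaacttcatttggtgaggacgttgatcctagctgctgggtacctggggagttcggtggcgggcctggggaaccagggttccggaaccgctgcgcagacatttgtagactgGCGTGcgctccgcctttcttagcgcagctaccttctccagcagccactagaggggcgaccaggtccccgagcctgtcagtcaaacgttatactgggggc
Pfkp: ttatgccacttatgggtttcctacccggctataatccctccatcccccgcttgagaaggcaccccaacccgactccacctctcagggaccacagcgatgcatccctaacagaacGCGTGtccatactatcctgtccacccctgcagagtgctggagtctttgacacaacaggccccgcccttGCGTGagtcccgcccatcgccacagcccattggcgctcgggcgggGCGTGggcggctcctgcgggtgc
Hk2 held 2 ACGTG cores, Pfkl 1 GCGTG core and Pfkp 3 GCGTG cores. Cores were thus present in the genes that fell, Hk2 and Pfkl. Of the genes that rose, Pfkp held cores and the nearest Hk1 window held none.

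Windows from 250 bases before to 50 bases after the start were found for 35 of the 39 members, with none for Slc2a3, Bnip3l, Ndrg1 and Bhlhe40. Where a member had several windows, as Hk1 does, the one nearest the start of its principal transcript was used. ACGTG occurred in 19 of the 35 (54.3%) and GCGTG in 21 (60.0%), on either strand, where a CACGTG palindrome counts once for each strand. Among all 32851 windows of the table, 19.6% held ACGTG and 32.4% held GCGTG, and among the 13388 windows of tested genes 25.1% and 48.8%. By direction, ACGTG was in 3 of 6 windows of members that rose, 6 of 14 of members that fell and 9 of 14 of members that did not pass the test, and GCGTG in 4 of 6, 8 of 14 and 9 of 14. A match is a run of letters and not a measured binding site.

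The prolyl hydroxylases that tag HIF-alpha for destruction showed the widest separation of any pair. Egln3, also known as PHD3 and itself a HIF target (chromosome 12, 54178981 to 54203874), stood at 194, 223, 223 and 191 CPM in shCtrl and at 307, 380, 310 and 290 CPM in shTlr7. The lowest shTlr7 library lay well above the highest shCtrl library. The log2 fold change was 0.63 ± 0.09 (SE), or 1.55-fold (edgeR adjusted p = 0.000112), the largest rise among the members. Egln1, the chief oxygen sensor PHD2 (chromosome 8, 124908587 to 124949254), stood at 265, 263, 252 and 250 CPM in shCtrl and at 209, 238, 194 and 213 CPM in shTlr7. Every shTlr7 library was below every shCtrl library, and Egln1 fell by 0.27 ± 0.06 on the log2 scale (SE, edgeR adjusted p = 0.000987). The ratio of Egln3 to Egln1 counts was 1.87-fold higher in shTlr7, and Egln3 took 52.0% ± 2.21 of their length-scaled sum in shCtrl and 67.0% ± 1.68 in shTlr7 (SD, n = 4).

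The promoters of this pair are shown by the same rule, since both genes are counted among HIF targets and moved in opposite directions here. They lie at chr8:124949255-124949504 (Egln1) and chr12:54203875-54204124 (Egln3) of GRCm38.p6, both on the minus strand, and capitals mark the same cores.
Egln1: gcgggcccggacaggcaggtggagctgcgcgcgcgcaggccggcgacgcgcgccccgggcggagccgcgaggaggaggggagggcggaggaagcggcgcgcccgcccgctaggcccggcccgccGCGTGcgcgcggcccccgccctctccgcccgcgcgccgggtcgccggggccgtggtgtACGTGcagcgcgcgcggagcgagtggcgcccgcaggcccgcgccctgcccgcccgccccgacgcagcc
Egln3: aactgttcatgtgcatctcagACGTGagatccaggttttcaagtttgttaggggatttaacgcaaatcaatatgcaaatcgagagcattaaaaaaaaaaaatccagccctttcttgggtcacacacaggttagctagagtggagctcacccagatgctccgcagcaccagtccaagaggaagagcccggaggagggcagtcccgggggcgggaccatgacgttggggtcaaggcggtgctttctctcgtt
Egln1 held 1 core of each spelling, and Egln3 held 1 ACGTG core near the far end of the stretch.

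The ratio of related members was compared within libraries for 12 pairs. In 6 pairs all 4 ratios of one group lay above all 4 of the other, which gives the smallest p that an exact two-sided permutation test of 4 against 4 can reach (p = 0.0286). Adjusted over the 12 pairs this p is 0.0571, so none passed the threshold. Adjusted over the 10 pairs with both members tested, an adjustment chosen after seeing the data, all 6 passed (exact permutation test, adjusted p = 0.0476). Single genes separated in this way, in CPM, for 49.8% of all tested genes. Ratios of other gene pairs were not examined, so no background share stands beside the 6. The 6 were Hk2 to Hk1, Pfkp to Pfkl, Pfkm to Pfkl (1.09-fold), Car12 to Car9 (0.731-fold), Egln3 to Egln1 and Bnip3l to Bnip3 (0.771-fold). The remaining pairs with both members tested were Eno2 to Eno1 at 1.43-fold (exact permutation p = 0.0571), Aldoc to Aldoa at 0.913-fold (p = 0.114), Ldhb to Ldha at 0.871-fold (p = 0.143) and Pfkfb4 to Pfkfb3 at 1.06-fold (p = 0.4). Ratios to Slc2a3 and Slc16a3 rest on too few counts to be read.

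**Figure D2:**
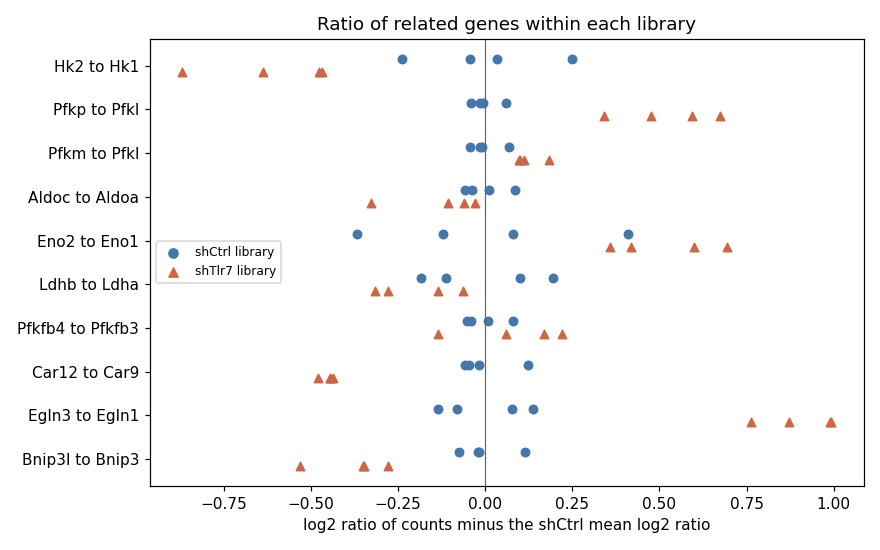
Log2 ratio of the counts of 2 related members within each library, minus the shCtrl mean (x axis), for the 10 pairs with both members tested (rows), with circles for shCtrl and triangles for shTlr7. Egln3 to Egln1 and Pfkp to Pfkl lie to the right of all shCtrl ratios, Hk2 to Hk1, Car12 to Car9 and Bnip3l to Bnip3 to the left.

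Among the flux regulators, Pdk1 fell and the phosphofructokinase-2 genes did not pass the test. Pdk1, a kinase that switches off pyruvate dehydrogenase, ranged from 206 to 226 CPM in shCtrl and from 158 to 201 CPM in shTlr7. The groups did not overlap, and it fell by 0.27 ± 0.06 on the log2 scale (SE, edgeR adjusted p = 0.00349). Pfkfb3 and Pfkfb4, which set the level of the phosphofructokinase activator fructose 2,6-bisphosphate, had log2 fold changes of -0.04 and 0.05, with 95% intervals from -0.23 to 0.16 and from -0.16 to 0.27.

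The carbonic anhydrases, which face the outside of the cell and convert carbon dioxide to bicarbonate and acid, differed in response. Car12 (chromosome 9, 66712296 to 66766845) stood at 66.7, 65.2, 61.6 and 69.5 CPM in shCtrl and at 45.3, 51.7, 37.9 and 40.7 CPM in shTlr7. The groups were well apart, and it fell by 0.58 ± 0.08 on the log2 scale (SE, edgeR adjusted p = 0.00011). Car12 thus fell by 33.0%. Car9, a classic marker of hypoxic tumour tissue (chromosome 4, 43507026 to 43513729), stood at 98.5, 95.3, 88.4 and 90.4 CPM in shCtrl and at 87.3, 99.7, 74.8 and 78.0 CPM in shTlr7. Its highest value of all was in shTlr7 replicate 2, the other shTlr7 libraries lay below every shCtrl library, and the log2 fold change was -0.13 ± 0.08 (SE, edgeR adjusted p = 0.192). Without shTlr7 replicate 2, Car9 was called lower at -0.22 (edgeR adjusted p = 0.0118). Within libraries the ratio of Car12 to Car9 was nearly the same in all 4 shTlr7 samples, and Car9 took 72.2% ± 1.17 of their length-scaled sum in shCtrl and 78.1% ± 0.22 in shTlr7 (SD, n = 4).

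Of the 4 members that act at mitochondria, 1 rose and 1 fell, or 50% called against 56% of all tested genes. Bnip3l, also called NIX, a receptor on the outer membrane that marks mitochondria for autophagy (chromosome 14, 66985238 to 67008877), stood at 337, 338, 317 and 331 CPM in shCtrl and at 239, 256, 228 and 235 CPM in shTlr7. The spread within each group was small beside the gap, and the log2 fold change was -0.47 ± 0.04 (SE), so that Bnip3l fell by 27.7% (edgeR adjusted p = 1.03e-06). Its relative Bnip3, with the same role (chromosome 7, 138890836 to 138909506), stood at 166, 173, 156 and 149 CPM in shCtrl and at 148, 179, 134 and 145 CPM in shTlr7. The groups overlapped, with shTlr7 replicate 2 above all shCtrl libraries, and Bnip3 had a log2 fold change of -0.08 (edgeR adjusted p = 0.408). Without that library Bnip3 was called lower at -0.17 (edgeR adjusted p = 0.0252). Its level is uncertain, since 94.2% of its transcript matched transcripts of 4 other genes. Of the Bnip3l transcript, 34.9% matched a transcript of 1 other gene.

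Ak4, a nucleotide kinase of the mitochondrial matrix (chromosome 4, 101416478 to 101467771), stood at 40.4, 47.1, 45.4 and 51.3 CPM in shCtrl and at 58.5, 75.7, 60.3 and 63.7 CPM in shTlr7. All shTlr7 libraries were above all shCtrl libraries, and replicate 2 was the highest. The log2 fold change was 0.49 ± 0.09 (SE), or 1.41-fold (edgeR adjusted p = 0.000564). Higd1a, a small inner-membrane protein of the respiratory chain, had a log2 fold change of 0.08 with a 95% interval from -0.06 to 0.23.

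Of the 7 remaining HIF targets, only Mxi1 passed the test, or 14.3% against 56% of all tested genes. Mxi1, a repressor that competes with MYC for its partner MAX, ranged from 117 to 135 CPM in shCtrl and from 97.3 to 111 CPM in shTlr7. It fell by 0.32 ± 0.05 on the log2 scale (SE, edgeR adjusted p = 0.000218), with no overlap. The lipid-droplet protein Hilpda had a log2 fold change of 0.07 and stayed between 14.0 and 16.0 CPM in all libraries. Ndrg1, a stress-induced gene and the most abundant of the 7 per kilobase, had a log2 fold change of -0.11, and without shTlr7 replicate 2 it was called lower at -0.20 (edgeR adjusted p = 0.0211).

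For the other 4 targets the library numbered 4 stood high in both groups. Ankrd37, an ankyrin-repeat gene, was at 12.4, 15.3, 15.1 and 46.2 CPM in shCtrl and at 13.6, 23.3, 16.8 and 53.6 CPM in shTlr7, so that replicate 4 was 3.24-fold and 3.00-fold the mean of its group's other libraries. Adm, which encodes the vasodilator peptide adrenomedullin, was at 9.20, 9.85, 10.9 and 20.7 CPM in shCtrl and at 8.17, 11.7, 8.66 and 17.0 CPM in shTlr7. Bhlhe40, a transcriptional repressor of the circadian clock, was at 232, 233, 231 and 361 CPM in shCtrl and at 254, 212, 231 and 340 CPM in shTlr7. The histone demethylase Kdm3a was at 132, 147, 152 and 196 CPM in shCtrl and at 136, 166, 138 and 186 CPM in shTlr7. In each of these genes the libraries with the number 4 topped their group, and the remaining libraries of the groups overlapped. The spread left wide 95% intervals for the log2 fold changes, from -1.25 to 1.82 for Ankrd37, from -0.97 to 0.71 for Adm, from -0.55 to 0.50 for Bhlhe40 and from -0.37 to 0.37 for Kdm3a. Outside the members, the stress gene Ddit4 showed the same feature, at 1.68-fold and 1.72-fold, while Slc2a1 and Egln3 were lower in replicate 4 than in the mean of the others, at 0.956-fold and 0.893-fold in shCtrl. These genes were singled out after their values were seen. Over all tested genes, replicate 4 was the highest of its group for 34.9% in shCtrl and 31.1% in shTlr7. The labels do not say what the numbers share, and what set these libraries apart was not tested.

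**Figure D3:**
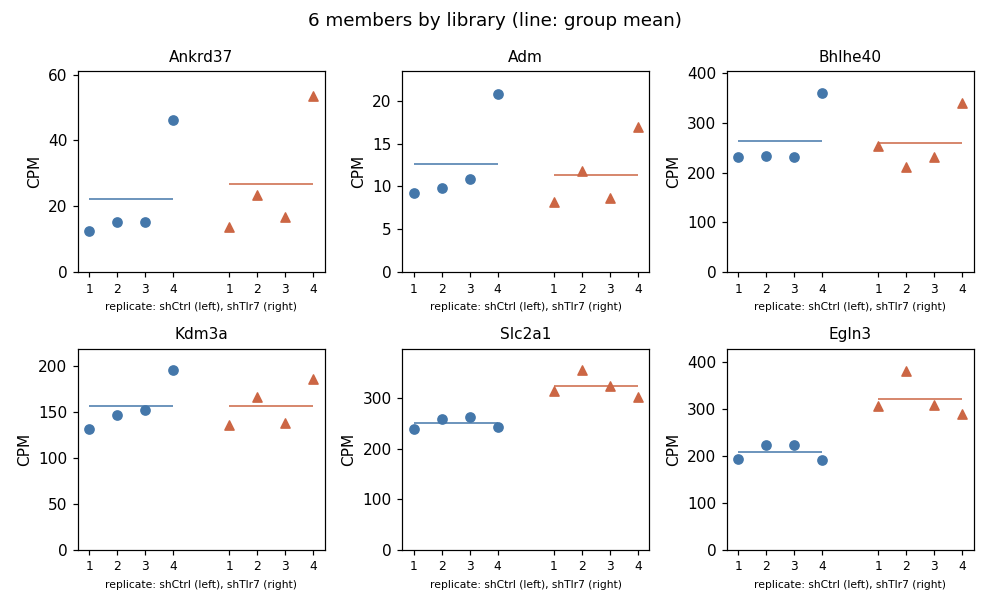
CPM (y axis, from 0) of 6 members in each library, with shCtrl replicates 1 to 4 as circles on the left, shTlr7 replicates 1 to 4 as triangles on the right and lines at the group means. Replicate 4 is the highest of both groups for Ankrd37, Adm, Bhlhe40 and Kdm3a, and not for Slc2a1 and Egln3.

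The HIF subunits and their control were read from a list of 11 genes, of which 8 were tested, with 4 higher and 1 lower. The share called was 62.5%, against 56% of all tested genes. Hif1a, the oxygen-regulated subunit, stood at 293, 295, 292 and 256 CPM in shCtrl and at 213, 201, 214 and 184 CPM in shTlr7. Replicate 4 was the lowest of each group, the groups did not overlap, and Hif1a fell by 0.49 ± 0.06 on the log2 scale (SE, edgeR adjusted p = 9.98e-06). Vhl, the ubiquitin ligase subunit that recognises hydroxylated HIF-alpha, stood at 28.3, 29.6, 29.7 and 30.8 CPM in shCtrl and at 41.4, 49.2, 41.4 and 49.8 CPM in shTlr7. It rose by a log2 fold change of 0.62 ± 0.07 with no overlap (SE, edgeR adjusted p = 4.80e-06). Hif1an, the asparaginyl hydroxylase that blocks HIF from its coactivator, rose by 0.35, the coactivator Ep300 by 0.22 and the partner subunit Arnt by 0.19 (log2 fold changes). Epas1, which encodes the other main alpha subunit, was not tested, with at most 0.0441 CPM in any library.

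A list of 38 further hypoxia-induced genes had 28 tested, of which 3 rose and 14 fell, with a median log2 fold change of -0.27. The share called was 60.7%, against 56% of all tested genes. Called with a fold change of at least 1.4 were 39.3%, against 21.3% of all tested genes. Vegfa, the angiogenic growth factor, stood at 179, 174, 184 and 224 CPM in shCtrl and at 93.0, 96.2, 92.8 and 107 CPM in shTlr7, a log2 fold change of -0.97 ± 0.08 (SE, edgeR adjusted p = 1.04e-06). Its groups were far apart, with replicate 4 the highest of each. The glycoprotein hormone Stc1 fell by 1.42, the collagen prolyl hydroxylase P4ha1 by 0.52 and the peptide-amidating enzyme Pam by 0.35, while the stress factor Ddit3 rose by 0.79 (log2 fold changes). These genes, like the members, thus held falls and rises side by side.

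**Figure D4:**
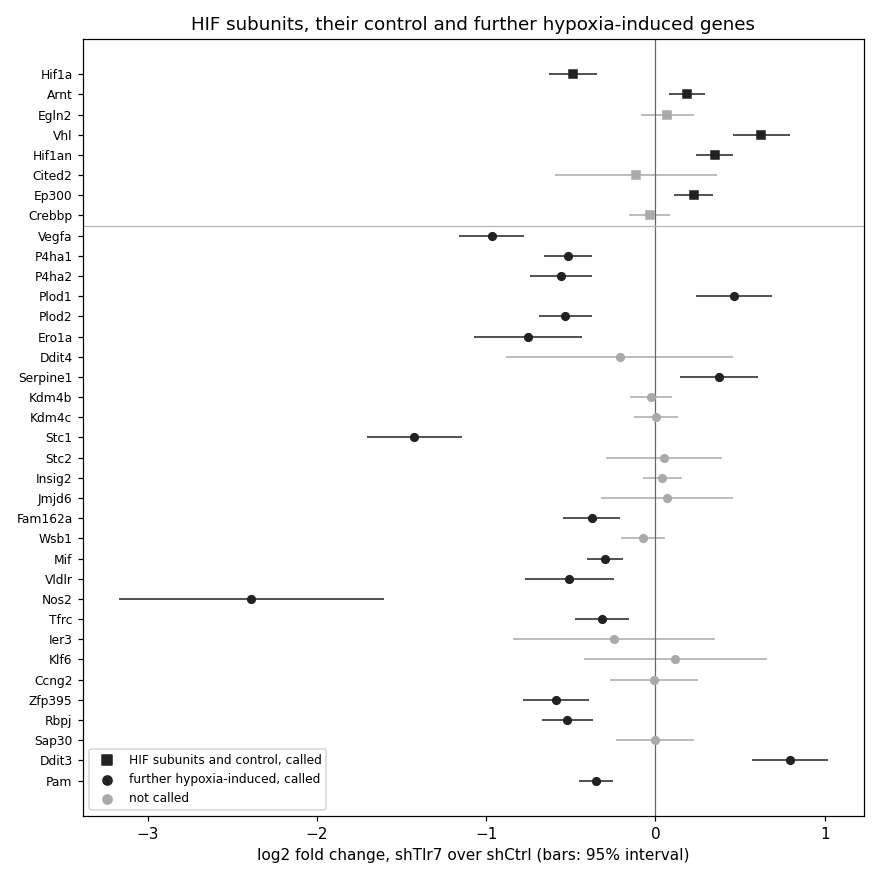
Log2 fold change of shTlr7 over shCtrl (x axis) with 95% intervals for the tested HIF subunits and control genes (squares, above the line) and further hypoxia-induced genes (circles, below), black where the adjusted p is under 0.05 and grey elsewhere. Hif1a lies left of 0 at -0.49 and Vhl right of it at 0.62, and 14 of the 28 hypoxia-induced genes are called to the left.

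Neighbouring steps of glucose use were read from further lists. The share of tested genes called was 81.8% for the isozymes and hexose carriers and 53.8% for pyruvate entry, against 56% of all tested genes. Of 27 additional isozymes and hexose carriers, 11 were tested, and 6 rose and 3 fell: the muscle mutase Pgam2 had a log2 fold change of 1.76, the carrier Slc2a6 of 1.4, Pfkfb2 of 0.54, the carrier Slc2a8 of 0.47 and Eno1b of -0.62. Pgam2 went from 1.83 to 6.05 CPM and Slc2a6 from 3.95 to 10.3 CPM. Of 13 tested genes of pyruvate entry into mitochondria, 6 rose and 1 fell. The 5 with the lowest p were the phosphatase regulator Pdpr at 0.47, the kinase Pdk2 at 0.86, the dehydrogenase subunit Pdhb at 0.28, the pyruvate carrier Mpc1 at 0.46 and the phosphatase Pdp1 at -0.33 (log2 fold changes). Pdk2 rose from 5.89 to 10.8 CPM, while its relative Pdk1, a member, fell.

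Of the 8 genes of the pentose phosphate pathway, 3 rose and 2 fell, or 62.5% called against 56% of all tested genes. The called genes were Pgd at 0.39, Rpe at 0.22, Pgls at 0.15, the transketolase Tkt at -0.23 and H6pd at -0.38 (log2 fold changes). The Pgls call, at an edgeR adjusted p of 0.0493, was lost under RLE scaling (0.0582), in DESeq2 (adjusted p = 0.0785) and without shCtrl replicate 2, 3 or 4 or shTlr7 replicate 2, 3 or 4 (edgeR adjusted p from 0.0536 to 0.117). The Rpe call, at 0.0297, was lost in DESeq2 (adjusted p = 0.0586) and without shCtrl replicate 2 (0.0567), shCtrl replicate 3 (0.0805) or shTlr7 replicate 2 (0.124). Of 10 tested genes of glycogen metabolism, only the glycogen primer Gyg passed the test, at 0.52, or 10% called. Among the others Phkb was at 0.12, Pygb at 0.06 and Gbe1 at -0.09. Phkb, at an edgeR adjusted p of 0.0643, was called higher without shCtrl replicate 4 (0.0464), shTlr7 replicate 1 (0.045) or shTlr7 replicate 3 (0.0478). Of 8 tested transcription factors and regulators of glycolysis, 4 rose and 2 fell, or 75% called. Myc, which drives many glycolytic genes, fell by 0.32 on the log2 scale, while its antagonists Mxd4 and Mxd1 rose by 0.64 and 0.44, the sugar-sensing partner Mlx by 0.23, and Txnip, which limits glucose uptake, by 0.83. The antagonists did not move together, since the member Mxi1 fell by 0.32. In shCtrl Mxi1 stood at a mean of 126 CPM, against 25.3 CPM for Mxd1 and 13.1 CPM for Mxd4. Their shared partner Max fell by 0.13 (edgeR adjusted p = 0.0319). Txnip ranged widely within shTlr7, at 490 ± 118 CPM against 276 ± 22.5 CPM in shCtrl (SD, n = 4). Without both libraries numbered 4, the edgeR adjusted p of Myc went from 0.00398 to 0.0779.

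Reads of overlapping genes cannot be told apart without the strand setting. Among the genes of these lists, another gene covers 27.9% of the exon bases of Mpc1, 27.1% of Pfkfb2, 21.6% of Txnip, 20.7% of Rpe, 19.6% of Mlx, 13.3% of Mxd4 and 10.1% of Hif1a. Among the members, beside Pfkp, it covers 30.6% of Higd1a, 28.7% of Bnip3, 26.2% of Ankrd37, 19.2% of Ndrg1 and 12.3% of Gpi1. Near-identical transcripts of other genes also matched 45.5% of the Gpi1 transcript, 43.5% of Higd1a, 19.3% of Tpi1, 16.4% of Ndrg1 and 16.1% of Ak4.

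The split of the members moved with the scaling. The TMM factors themselves differed by group, from 0.955 to 0.970 in shCtrl and from 1.034 to 1.048 in shTlr7. With library size alone in place of TMM, 8 members were called higher and 10 lower in place of 6 and 15, as the median log2 fold change of all tested genes moved to 0.11. Over all tested genes, library size alone gave 5503 higher and 2483 lower in place of 3835 and 3631. Under that scaling the enzymes Pfkl, Gapdh, Pgk1 and Pgam1 and the kinase Pdk1 were no longer called. Higd1a and Hilpda were called higher, and no called member changed direction. Slc2a1, Ldhb, Car12, Egln3, Bnip3l and Ak4 kept their calls under all 21 alternatives run, and Eno1 under the 20 that could test it.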

How the data were processed

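The deposited values are whole-number counts of reads in 1 table with a column for each of the 8 libraries, not normalized. STAR 2.7.5, DESeq2 1.32.0 and GRCm38 appear in the submitters' processing notes, with no roles. Not given in the sources used here are the counter, the annotation and the strand setting. Rows of 1 symbol with a numbered suffix were summed (41730 rows to 39388 symbols). Genes were filtered by filterByExpr, scaled by TMM and tested by edgeR 4.0.16 (R 4.3.3, robust glmQLFit and glmQLFTest, group as the only term), with Benjamini-Hochberg adjustment over all 13342 genes and a threshold of 0.05; the test was tried on simulated counts first. The SE is the log2 fold change over the square root of F, and "called" means past that threshold. The 95% intervals take that SE with 6 residual degrees of freedom and can be wider than the test implies. For Aldoa the interval ran from -0.28 to 0.01 although the unadjusted edgeR p was 0.0412. CPM uses TMM-scaled totals; levels per kilobase divide it by the longest principal transcript of GENCODE vM21. Pair ratios had 0.5 added to each count and an exact permutation test.

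No 2 libraries of a group agreed within sampling noise (chi-square per degree of freedom 2.23 to 22.8). In shCtrl, pairs with replicate 4 gave 12.5 to 22.8 and the other pairs 2.23 to 3.33. In shTlr7, pairs with replicate 4 gave 11.6 to 15.8 and the other pairs 4.94 to 11.3. Near-identical copies were sought by BLAST at 97% identity over at least 100 bases. Values by library are given for members called with a fold change of at least 1.4, both members of pairs whose ratios were apart, and the 3 members with the lowest p in each direction; from each further list, the 5 genes with the lowest p are named, except 1 that is not reported here. The members and lists were chosen with earlier results of these data known. Alternatives were DESeq2 1.42.0, limma-voom (limma 3.58.1), scaling by RLE, by upper quartile or by library size, other filters, a threshold of 0.01, glmTreat, a replicate block, thinning to 18.1 M counts, unsummed copies and leaving out libraries.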

Additional observations from a re-analysis of the deposited data

Results flagged for a closer look

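Among the 74 sets of 4 libraries (37 tested members in 2 groups), 4 held a library whose gap to the nearest other passed Dixon's 95% limit, as chance does in about 1 set in 20. In shCtrl, replicate 4 stood apart for Adm at 20.7 CPM (nearest 10.9), for Ankrd37 at 46.2 CPM (nearest 15.3) and for Bhlhe40 at 361 CPM (nearest 233). In shTlr7, replicate 2 stood apart for Mxi1 at 111 CPM (nearest 99.1). The shTlr7 library numbered 4 was also the highest of its group for Adm, Ankrd37 and Bhlhe40, without passing the limit.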

How the results depend on the processing

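No called member changed sign under the 21 alternatives: of 776 recomputed member values, 727 kept their call, 32 lost it and 17 gained one. Among members not called, 27 values of 8 genes changed sign (Adm, Ankrd37, Bhlhe40, Bnip3, Kdm3a, Pfkfb3, Pfkfb4 and Pfkm). With a minimum fold change of 1.2 (glmTreat), 3 members were called higher and 4 lower. Of the hexokinases, phosphofructokinases and HIF prolyl hydroxylases, only Egln3 was then called. Leaving out each replicate in turn gave 6 to 6 members higher and 13 to 21 lower, the 21 without shTlr7 replicate 2. Without both libraries numbered 4 there were 6 higher and 13 lower, with Gapdh and Pgk1 lost. DESeq2 gave 6 and 16, voom 7 and 15. The replicate numbers were not treated as pairs: deviations from the group means of same-numbered samples correlated at -0.00, 0.11, 0.12 and 0.38, and shCtrl replicates 1 and 2 correlated best with shTlr7 replicate 3. With the replicate number as a block, 7 members were higher and 20 lower, the added ones being Ankrd37 (0.31, edgeR adjusted p = 0.00322), Gpi1, Aldoa, Aldoc, Car9 and Ndrg1. The pair ratios past the threshold numbered 0 over 12 pairs and 6 over the 10 with both members tested. Counts below about 10 per library left Slc2a3 and Slc16a3 unread.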
